A study of Mus musculus with 61 samples.

Results

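The 9 genes described here are Tal2, Pou4f1, Pou4f2, Tfap2b, Gata3, Gata2, Helt, Sox14 and Mab21l2, which encode regulators of the developing midbrain roof and of its GABAergic neurons. They were chosen by symbol, and were found among the 43346 Ensembl genes of the deposited table through GENCODE symbols. They and the gene lists used below were chosen with earlier results of these data known. The table holds 61 mRNA libraries from fetal mouse tissue: 16 of midbrain, 16 of hindbrain and 15 of forebrain taken between E10.5 (E for embryonic day) and the day of birth (P0), and 14 of liver from E11.5 to P0. Of the 31 combinations of tissue and stage, 30 hold 2 libraries and forebrain at E10.5 holds 1. The labels give no strain, sex, genotype or treatment, and do not say whether a library came from 1 embryo or a pool. The spread between libraries may therefore be technical. Levels are TPM, a relative transcript abundance adjusted for transcript length and scaled to a fixed total in each library, so levels of different genes can be set side by side.

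The roof of the midbrain, the tectum, becomes the superior and inferior colliculi, and many of its neurons release the inhibitory transmitter GABA. In the midbrain, progenitors that express the basic helix-loop-helix repressor Helt give rise to GABAergic neurons, and young postmitotic neurons switch on the zinc finger factors Gata2 and Gata3 together with Tal1 and Tal2. Selector genes of this kind choose between the GABAergic and the glutamatergic fate. Pou4f1 and Pou4f2 (Brn3a and Brn3b) are POU homeodomain factors of tectal projection neurons and of sensory neurons outside the brain.

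The sequence just before the start of 3 genes is shown, because Tal2 and Helt had the most similar profiles of the 9 across the brain and because Sox14 was the one gene with a GATA match. Each line is the 250 bases before the RefSeq start on build GRCm38.p6, written 5′ to 3′ on the strand of the gene. Capitals mark an E-box (CANNTG) in Tal2 and Helt and a GATA match (AGATAA or AGATAG or TGATAA or TGATAG, either strand) in Sox14. The windows are chr4:53779451-53779700 on the plus strand for Tal2, chr8:46294672-46294921 on the minus strand for Helt and chr9:99876171-99876420 on the minus strand for Sox14.
Tal2: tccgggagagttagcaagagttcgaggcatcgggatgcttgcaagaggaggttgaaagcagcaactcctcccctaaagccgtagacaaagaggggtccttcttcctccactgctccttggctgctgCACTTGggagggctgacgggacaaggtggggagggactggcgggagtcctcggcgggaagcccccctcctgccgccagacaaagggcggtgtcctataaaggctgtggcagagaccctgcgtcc
Helt: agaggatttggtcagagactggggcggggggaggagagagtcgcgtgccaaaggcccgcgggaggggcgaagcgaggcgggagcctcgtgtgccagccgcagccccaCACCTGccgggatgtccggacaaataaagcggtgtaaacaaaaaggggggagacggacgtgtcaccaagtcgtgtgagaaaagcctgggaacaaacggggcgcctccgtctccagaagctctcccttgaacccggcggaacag
Sox14: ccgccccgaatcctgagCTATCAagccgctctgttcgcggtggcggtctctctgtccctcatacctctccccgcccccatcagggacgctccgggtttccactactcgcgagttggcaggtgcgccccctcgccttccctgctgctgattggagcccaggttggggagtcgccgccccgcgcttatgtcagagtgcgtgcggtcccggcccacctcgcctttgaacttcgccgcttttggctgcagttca
All 9 genes matched the RefSeq promoter table, with 10 windows because Gata2 has 2 starts. An E-box was found in 5 of the 10 windows, beside 66.2% of 32851 promoter windows of the same length in the mouse table. A GATA match was found in 1 of 10 windows, beside 26.5% of all windows. The AP-2 motif GCCNNNGGC was found in 3 of 10 windows (Gata3, the downstream start of Gata2, and Helt), beside 13.7% of all. The homeodomain core TAATTA and the octamer ATGCAAAT were found in 0 of the 10 windows, beside 4.8% and 1.6% of all. Both strands were searched, and no match overlapped a match of another motif. A match describes letters in a window and no more. The median GC content was 66.4% over the 10 windows and 52.4% over all windows.

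Read counts are not used here, and sequencing depth is unknown. Between 13780 and 15561 genes reached 1 TPM in the brain libraries. The regional labels were checked on their own markers. Hoxb3, a hindbrain gene, averaged between 30.0 and 136 TPM in the hindbrain groups and 1.24 TPM or less in the midbrain groups at every stage except E15.5. At E15.5 the libraries labelled midbrain averaged 82.8 TPM and those labelled hindbrain 0.20 TPM, so both groups go against their labels. They are described apart below and enter no other comparison between stages or regions, except in an alternative with wider windows, as labelled. The stage of 4 libraries is in conflict: 1 midbrain and 1 hindbrain column headed P0 have a sample record titled E16.5, and 1 of each headed E16.5 have a record titled P0. They were placed by header, so E16.5 and P0 of these regions each rest on 1 library without such a conflict, while the late window holds all 4 either way. Without them, as many of the 9 genes were called in every late comparison, except from the middle to the late window in midbrain, where Gata2 (-1.05) was also called. The brain libraries of E12.5 carry liver transcripts. Summed Alb, Afp and Apoa1 reached between 202 and 347 TPM in midbrain at E12.5, against 0.48 to 33.2 TPM in the midbrain libraries of the early and middle windows. E12.5 is outside the early, middle and late windows, apart from an alternative with wider windows. It does enter the highest stages, the counts of stages by region and the correlations given below. A further split runs through the table: 24 of 61 libraries list the microRNA gene Mir686 at 0, among them all brain libraries of E10.5, E13.5 and E15.5. Each comparison was therefore also made within 1 side of that split.

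**Figure D1:**
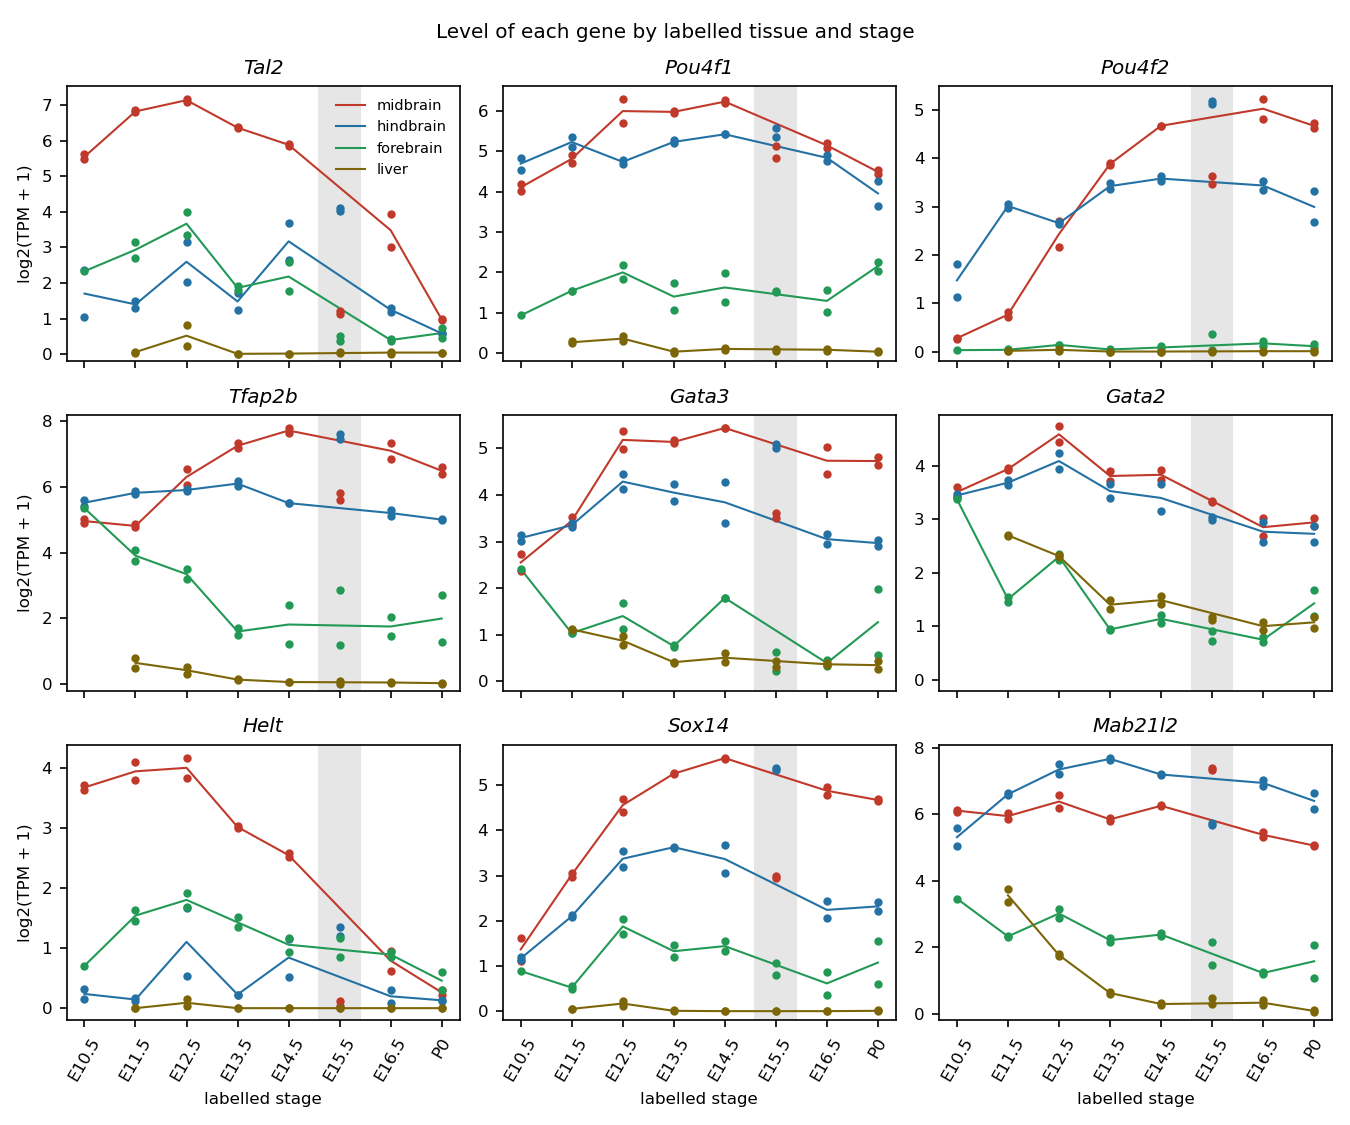
Level of each of the 9 genes, as log2(TPM + 1), against labelled stage in midbrain, hindbrain, forebrain and liver. Points are single libraries and lines join the group means with E15.5 (grey band) left out; Tal2 and Helt in midbrain decline from E12.5 to P0 while Pou4f2 climbs to E16.5, and at E15.5 the points labelled midbrain and hindbrain lie near the other region's line for most genes.

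Helt and Tal2 were the genes of the early midbrain. Helt, at chr8:46292039-46294671, is a Hes-related repressor of GABAergic progenitors. Its midbrain libraries held 12.1 and 11.4 TPM at E10.5, 16 and 12.9 at E11.5, 13.2 and 17 at E12.5, 7.20 and 6.96 at E13.5, and 4.69 and 4.99 at E14.5. They held 0.94 and 0.54 TPM at E16.5 and 0.24 and 0.16 at P0. Helt was thus near its highest level from the first stage sampled and close to 0 at birth. Its highest hindbrain library outside E15.5 held 2.18 TPM and its highest forebrain library 2.77 TPM, both at E12.5. Tal2, at chr4:53779705-53788712, is a basic helix-loop-helix factor needed for midbrain GABAergic neurons. Its midbrain libraries held 48.4 and 43.6 TPM at E10.5, 115 and 110.3 at E11.5, 136 and 144 at E12.5, 80.4 and 82.9 at E13.5, and 59.4 and 56.9 at E14.5. They held 14.4 and 7.11 TPM at E16.5 and 0.98 and 0.95 at P0. The Tal2 mean at P0 was 0.7% of the mean at E12.5. In hindbrain Tal2 lay between 0.48 and 11.9 TPM and in forebrain between 0.30 and 14.8 TPM. At all 7 stages outside E15.5, both midbrain libraries held more Tal2 than any forebrain or hindbrain library of that stage. Since these are bulk samples, fewer cells of a type and less RNA per cell cannot be told apart.

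In the midbrain, Gata2, Gata3 and Sox14 mark GABAergic neurons after their last division, and they differed in timing. Bulk levels do not show which cells of a region hold these transcripts. Gata2, at chr6:88193891-88207032, is a zinc finger factor that starts the GABAergic program in the midbrain. It held 11.2 and 9.67 TPM in midbrain at E10.5, 20.7 and 25.7 at E12.5, 14.2 and 12.4 at E14.5, and 6.30 and 7.12 at P0. Hindbrain values were close: 9.70 and 10.1 TPM at E10.5, 14.3 and 18.0 at E12.5, 11.6 and 7.87 at E14.5, and 4.96 and 6.39 at P0. The Gata2 libraries of the 2 regions overlapped at E10.5, E16.5 and P0. Gata3, at chr2:9857078-9890034, acts beside and after Gata2. It held 5.64 and 4.18 TPM in midbrain at E10.5, 30.7 and 40.8 at E12.5, 42.6 and 42.2 at E14.5, and 24.0 and 27.2 at P0. In hindbrain it held 7.11 and 7.79 TPM at E10.5, 18.6 and 9.54 at E14.5, and 6.49 and 7.18 at P0. Gata3 was thus lower in midbrain than in hindbrain at E10.5 and higher at P0. At E11.5 the libraries overlapped, with 9.26 to 10.6 TPM in midbrain and 8.88 to 9.56 in hindbrain. Sox14, at chr9:99874106-99876170, is a SoxB factor of GABAergic neurons in the tectum and thalamus. It held 2.08 and 1.16 TPM in midbrain at E10.5, 37.4 and 37.1 at E13.5, 47.9 and 47.2 at E14.5, and 24.2 and 24.9 at P0. In hindbrain Sox14 was highest at E13.5, with 11.3 and 11.49 TPM, and held 4.37 and 3.64 at P0. Gata3 overlaps 3 other GENCODE genes. One of them, 9230102O04Rik, lies on the same strand and averaged up to 6.12 TPM in midbrain, so part of its signal and that of Gata3 may not be separable. The library kit was stranded, per the labels' protocols, but the strand setting of the counting is not given in the sources used here.

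Tfap2b, at chr1:19208914-19238576, encodes an AP-2 factor of neural crest and of tectal neurons. It held the highest single midbrain value of the 9 genes. Its midbrain libraries held 31.8 and 28.7 TPM at E10.5, 26.3 and 28.1 at E11.5, 66.3 and 92.3 at E12.5, 161 and 143 at E13.5, and 220.3 and 200.2 at E14.5. They held 115 and 162 TPM at E16.5 and 82.8 and 96.2 at P0. The hindbrain range was narrower, from 47.8 and 42.3 TPM at E10.5 to 64.6 and 71.2 at E13.5 and 30.8 and 31.6 at P0. Forebrain ran the other way: 39.9 TPM in the E10.5 library, 12.4 and 15.9 at E11.5, 2.29 and 1.80 at E13.5, and 5.55 and 1.43 at P0. The single E10.5 forebrain library also held the highest forebrain Gata2 (9.39 TPM), Gata3 (4.33 TPM) and Mab21l2 (10 TPM). Its summed level of 7 eye genes was 22.98 TPM, against 3.22 to 4.01 TPM in the E11.5 forebrain libraries. Its sum of 6 genes of cranial mesenchyme and skin was 203 TPM, against 181 and 202 TPM at E11.5. The part of those tissues in the forebrain values was not tested.

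The POU factors were shared with hindbrain and differed in timing. Pou4f1, at chr14:104461676-104467999, held 15.2 and 17.4 TPM in midbrain at E10.5, 75.9 and 72.5 at E14.5, and 20.7 and 22.3 at P0. In hindbrain it held 27.8 and 22.4 TPM at E10.5, 41.8 and 42.1 at E14.5, and 18.2 and 11.6 at P0. The hindbrain libraries were above the midbrain ones at E10.5 and E11.5 and below them at the other 5 stages outside E15.5. Pou4f2, at chr8:78433010-78436645, was nearly absent from midbrain at E10.5, with 0.22 and 0.20 TPM. It held 0.63 and 0.77 TPM at E11.5, 3.47 and 5.51 at E12.5, 13.6 and 13.9 at E13.5, and 24.5 and 24.5 at E14.5. Its midbrain libraries then held 27.2 and 36.6 TPM at E16.5 and 23.6 and 25.3 at P0. By header, Pou4f2 was the only one of the 9 genes whose highest midbrain mean, 31.9 TPM, fell at E16.5. That mean and the P0 mean each include a library of conflicting stage, so the order of E16.5 and P0 is uncertain. In hindbrain it held 2.50 and 1.2 TPM at E10.5 and 11.4 and 10.6 at E14.5. No forebrain library outside E15.5 held more than 0.16 TPM of Pou4f2.

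Mab21l2 was the exception in region. It encodes a nuclear protein related to the nematode mab-21 gene, with roles in eye and midbrain growth. The gene lies at chr3:86545581-86548629 within Lrba, a gene of the opposite strand that reached 35.2 TPM in 1 library. Midbrain libraries held 69.6 and 66.6 TPM of Mab21l2 at E10.5, 58.5 and 54.6 at E13.5, 76.1 and 74.6 at E14.5, and 31.9 and 32.6 at P0. Hindbrain libraries held 47.1 and 31.7 TPM at E10.5, 197 and 207 at E13.5, 144 and 148 at E14.5, and 70.1 and 99.5 at P0. Midbrain was above hindbrain at E10.5 only, and below it at the other 6 stages outside E15.5. Forebrain libraries held 1.10 to 10 TPM.

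The first comparison asked in which windows the 9 genes separated midbrain from the other regions. The 3 windows were early (E10.5 and E11.5), middle (E13.5 and E14.5) and late (E16.5 and P0). A gene was called when its adjusted p was below 0.05 and its log2 fold change was at least 1 in size, with limma on log2(TPM + 1) over 18655 genes. The 9 genes all passed the filter on low values. The comparisons of midbrain with forebrain and with hindbrain share the midbrain libraries and are given side by side.

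Against forebrain, 7 of the 9 genes were called in the early window, where 2.81% of all tested genes were called, and all 7 were higher in midbrain. Tal2 was higher by 3.56 (SE 0.26), Pou4f1 by 3.22 (SE 0.16) and Mab21l2 by 3.14 (SE 0.16) on the log2 scale. Tfap2b was not called, with a log2 value of 0.26 (SE 0.27, limma adjusted p = 0.592). Without the single E10.5 forebrain library it was 0.98 (limma adjusted p = 0.0113), still under the required fold. In the middle window all 9 genes were called higher in midbrain, beside 4.95% of all genes called. Tfap2b differed most, by 5.78 (SE 0.24), with means of 181 and 2.43 TPM. Helt differed least, by 1.54 (SE 0.14). In the late window 8 of 9 were called higher, beside 4.35% of all genes. Helt was the exception at -0.15 (SE 0.14, limma adjusted p = 0.409), with means of 0.47 and 0.62 TPM. The median of the 9 genes was 1.49 early, 4.05 in the middle window and 3.82 late, against 0.03, 0.07 and 0 over all tested genes. The early calls of Gata3 (1.27), Gata2 (1.28) and Sox14 (1.49) rested on E11.5. At E10.5 alone the values were 0.14, 0.13 and 0.48 and none was called, and at E11.5 alone they were 2.41, 2.43 and 2.50. Those stages also differ in Mir686, so stage and that split cannot be told apart. Without the single E10.5 forebrain library the early values of Gata3 and Gata2 were 1.96 and 2.22. The Gata3 call was also lost with a replicate block, at 0.97.

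**Figure D2:**
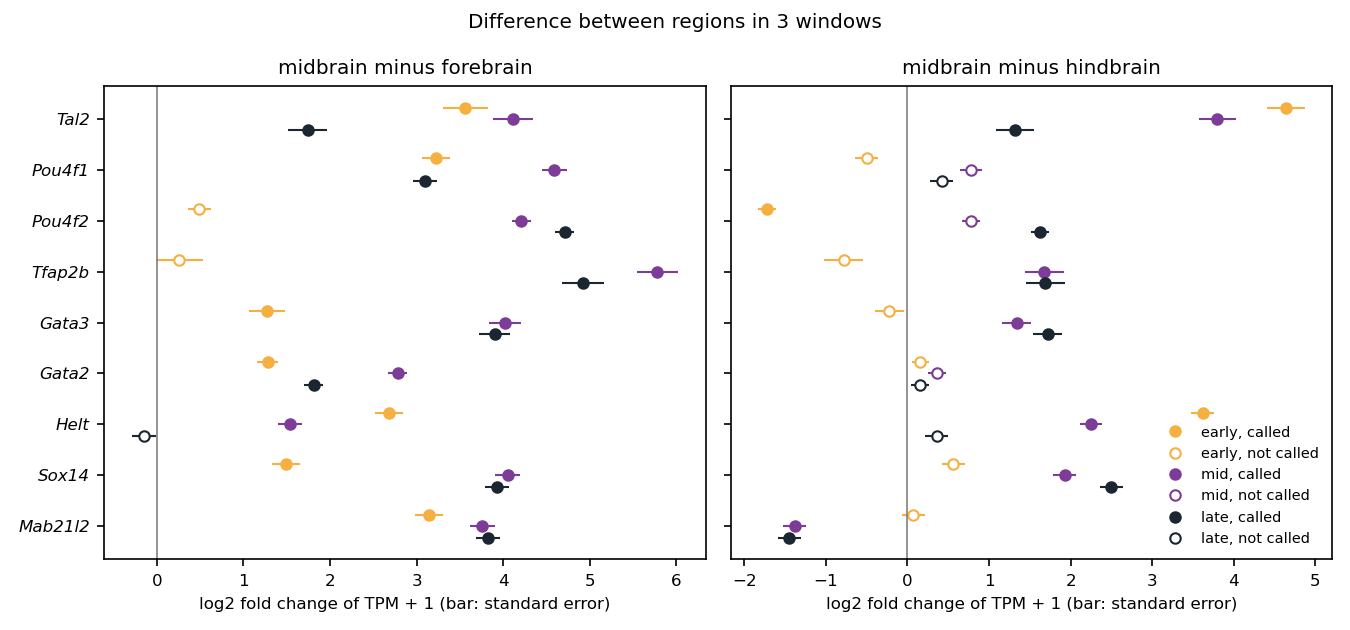
Log2 fold change of TPM + 1 between midbrain and forebrain (left) and between midbrain and hindbrain (right) for the 9 genes in the early, middle and late windows, with standard errors as bars; filled points were called. All 9 genes are filled and right of 0 against forebrain in the middle window, while against hindbrain Mab21l2 lies left of 0 in the middle and late windows and Pou4f2 moves from -1.72 early to 1.63 late.

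Against hindbrain the 9 genes split by time. In the early window 3 of 9 were called, beside 2.26% of all genes. Tal2 was higher in midbrain by 4.64 (SE 0.23) and Helt by 3.62 (SE 0.14), whereas Pou4f2 was lower by 1.72 on the log2 scale (log2 -1.72, SE 0.11). The other 6 genes were not called, among them Gata3 at -0.22 (SE 0.18) and Mab21l2 at 0.07 (SE 0.14). In the middle window 6 of 9 were called, beside 2.46% of all genes. Tal2 (3.80), Helt (2.25), Sox14 (1.93), Tfap2b (1.68) and Gata3 (1.34) were higher in midbrain, and Mab21l2 was lower (-1.38, SE 0.14). Pou4f1 and Pou4f2 both had a log2 value of 0.78, under the fold required for a call. In the late window 6 of 9 were again called, beside 2.03% of all genes. Sox14 (2.50), Gata3 (1.72), Tfap2b (1.69), Pou4f2 (1.63) and Tal2 (1.32) were higher in midbrain and Mab21l2 was lower (-1.45, SE 0.14). Gata2 was called in none of the 3 windows, at 0.16, 0.36 and 0.15. The median of the 9 genes was 0.07, 1.34 and 1.32, against -0.03, -0.01 and -0.03 over all genes. At E16.5 alone the late Tal2 value was 2.24. Among the P0 libraries that list Mir686 at 0 it was 0.41 and was not called, but this set 2 midbrain libraries against 1 hindbrain library, whose record says E16.5. The middle Mab21l2 value was -0.94 at E14.5 alone, which was not called. With the E15.5 libraries added to the late window as labelled, limma called 0 of 9 genes and 39 of all genes. Sox14 then had the highest value of the 9, 0.86 (adjusted p = 1.87e-06).

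Genes of peripheral sensory ganglia moved with this comparison. Of 7 such genes, 4 were lower in midbrain than in hindbrain early, beside 1.75% of all genes. In the middle window 6 were lower (1.8% of all genes) and in the late window 4 (1.51%), and none was higher. Their summed level in the middle window was 87.7 to 128 TPM in midbrain and 407 to 684 TPM in hindbrain. None of the 7 was below 0.5 TPM in every library of either region. Prph, which encodes peripherin, differed by -3.01 in the middle window and Sncg, which encodes gamma-synuclein, by -2.0. Pou4f1, Pou4f2 and Tfap2b are also expressed in such ganglia, and the part of ganglion tissue in the hindbrain values of these genes and of Mab21l2 was not tested. Of 6 genes of cranial mesenchyme and skin, 2 were lower in midbrain than in hindbrain early, 2 in the middle window and none late. Of 5 eye genes tested, 1 was lower early, none in the middle window and 1 late. Sox14 is also expressed in the diencephalon, a neighbouring region. Of 4 genes listed for it, 1 was higher in midbrain than in forebrain early, beside 1.99% of all genes. In the middle window 2 were higher (2.81% of all genes) and in the late window 2 (2.36%). The early gene was Irx1, joined later by Lef1. Gbx2 (0.94, -0.12 and 0.76) and Gng8 (0.05, 0.44 and 0.32) were called in none of the 3 windows. Irx1 averaged 35.8 TPM in both midbrain and hindbrain early, so it was not particular to the diencephalon here. The part of diencephalon tissue in the midbrain values was not tested. For 6 erythroid and 4 endothelial genes limma called 0 of 60 tests between midbrain and the other regions. Log2 values ran from -0.39 to 0.91, and 11 tests had an unadjusted p under 0.05. Most of these 11 also had a limma adjusted p under 0.05 and missed only the required fold. In the middle window all 4 endothelial genes were lower in midbrain than in hindbrain (-0.39 to -0.24, limma adjusted p from 0.00337 to 0.043). Against forebrain in that window Cdh5 (0.38) and Tek (0.20) were higher in midbrain. The part of vessels in the values of the 9 genes was not tested.

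Hindbrain also stood above forebrain for most of the 9 genes. In the early window 7 of 9 were called, beside 4.58% of all genes, with 6 lower in forebrain and Tal2 higher (1.08, SE 0.26). In the middle window 7 of 9 were called, beside 9.23% of all genes, and all 7 were lower in forebrain. In the late window 7 of 9 were called lower in forebrain, beside 5.41% of all genes. Mab21l2 differed most late, at -5.28 (SE 0.14), with means of 1.75 and 104 TPM. Tal2 and Helt were called in neither of these later windows. The early calls of Tal2 and Tfap2b (-1.04) lay near the required fold. Tal2 was 0.97 without the E11.5 forebrain replicate 1 and 0.76 without the E10.5 hindbrain replicate 1, and was called in neither. Tfap2b was not called without either library, at -0.96 in the first case and just short of the required fold in the second. Tfap2b and Gata2 were not called after scaling by median ratios (-0.92 and -0.98) or after quantile normalization (-0.94 and -0.84). The Tal2 adjusted p was 0.0544 by limma with the 4 libraries of conflicting stage placed by their record. At E10.5 alone Tal2, Tfap2b, Gata3 and Gata2 were not called, at 0.63, -0.17, -0.66 and -0.07. Without the E10.5 forebrain library Tfap2b, Gata3 and Gata2 were -1.76, -2.18 and -2.06.

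Change within each region was compared next. From the early to the middle window, 6 of 9 genes were called in midbrain, where 19.7% of all genes were called. Pou4f2 rose by 3.76 (SE 0.11), Sox14 by 3.24 (SE 0.14), Tfap2b by 2.60 (SE 0.24), Gata3 by 2.29 (SE 0.18) and Pou4f1 by 1.64 (SE 0.14). Helt fell by 1.03 (SE 0.14), a call that was lost without the E11.5 midbrain replicate 1, at -0.95, and from E10.5 to E13.5 alone, at -0.66. Tal2 (-0.06), Gata2 (0.10) and Mab21l2 (0.02) were not called. In hindbrain 3 of 9 were called, beside 19.4% of all genes. They were Sox14 (1.87), Mab21l2 (1.48) and Pou4f2 (1.26). From E11.5 to E14.5 alone Mab21l2 (0.60) and Pou4f2 (0.57) were not called. In forebrain 2 of 9 were called, a share near the 15.7% of all genes, and both fell: Tfap2b by 2.92 (SE 0.27) and Gata2 by 1.40 (SE 0.12). Without the E10.5 forebrain library Gata2 was -0.47 and was no longer called.

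From the middle to the late window, 3 of 9 genes were called in midbrain, beside 8.34% of all genes, and all 3 fell. Tal2 fell by 3.90 (SE 0.23), Helt by 2.25 (SE 0.14) and Pou4f1 by 1.29 (SE 0.14). The Tal2 change was -2.40 from E14.5 to E16.5 alone and -5.39 from E13.5 to P0 alone. Pou4f2 had a positive value that was not called (0.57, SE 0.11). In hindbrain 2 of 9 were called, beside 4.58% of all genes: Tal2 fell by 1.41 and Sox14 by 1.22. With the Mir686-zero libraries of E13.5 and P0 alone the hindbrain Tal2 value was -0.91 and was not called, but P0 was then that 1 hindbrain library. In forebrain 1 of 9 was called, a share near the 9.48% of all genes, and Tal2 fell by 1.53. The 6 erythroid genes changed over the same period. Of the 6, 5 fell from early to middle in each of the 3 regions, beside 4.78% to 6.52% of all genes. Their summed level in midbrain had a median of 8868 TPM early, 3651 TPM in the middle window and 1028 TPM late. Gata2 is also expressed in blood cells, and their part in its values was not tested.

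**Figure D3:**
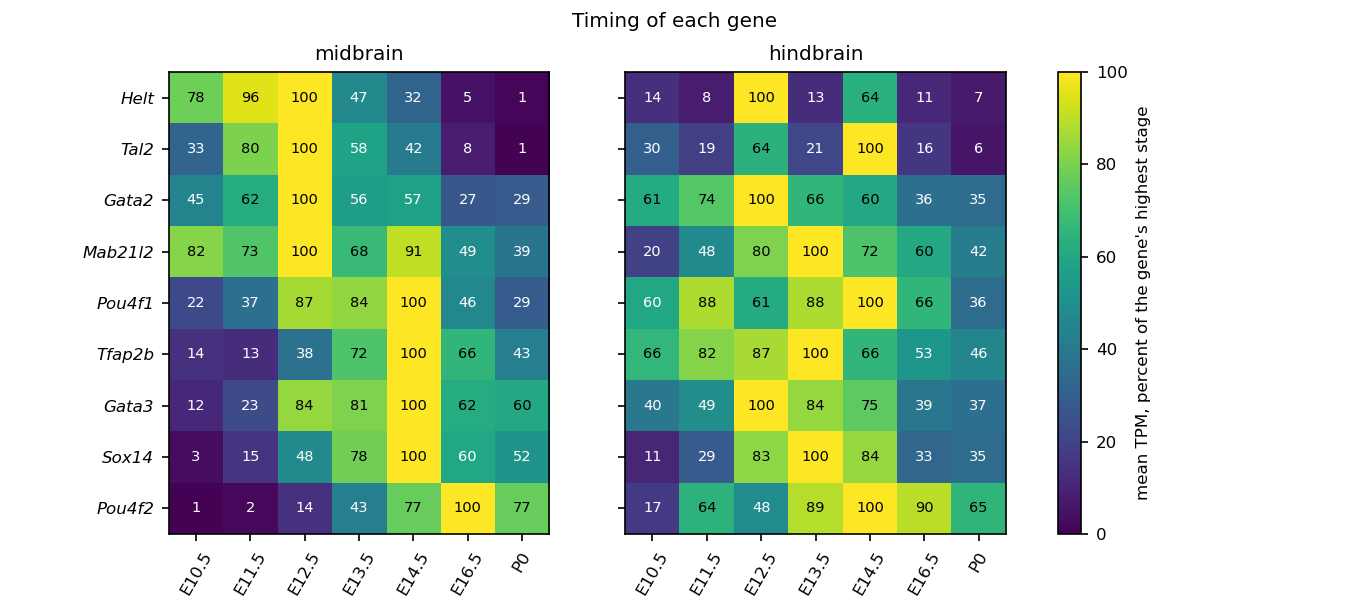
Mean TPM of each gene at each labelled stage as a percent of its highest stage mean, in midbrain (left) and hindbrain (right), with E15.5 left out. In midbrain the highest stage moves from E12.5 for Helt, Tal2, Gata2 and Mab21l2 to E14.5 for Pou4f1, Tfap2b, Gata3 and Sox14 and to E16.5 for Pou4f2. The Pou4f2 means of E16.5 and P0 each include a library of conflicting stage, so their order is uncertain. For Pou4f1 and Mab21l2 the E12.5 and E14.5 libraries overlapped.

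The timing plot gives the order of the highest stages. In midbrain, Helt at E10.5 stood at 77.9% of its highest mean, Tal2 at 32.8%, Gata3 at 11.6%, Sox14 at 3.4% and Pou4f2 at 0.7%. At P0 Helt stood at 1.3%, Tal2 at 0.7%, Gata3 at 60.3%, Sox14 at 51.6% and Pou4f2 at 76.7%. Pou4f1 stood at 21.9% and 29.0% at these 2 stages, and Tfap2b at 14.4% and 42.6%. Mab21l2 (81.8% and 38.8%) and Gata2 (45.0% and 28.9%) were also lower at P0 than at E10.5, though less far down than Helt and Tal2. Neighbours in this order were not tested against each other. Helt at E11.5 and E12.5 overlapped between libraries, as did Gata3 at E12.5 and at E13.5. Pou4f1 also overlapped, with 50.7 to 78.1 TPM at E12.5 and 72.5 to 75.9 at E14.5. For Mab21l2 these ranges were 72.0 to 94.4 and 74.6 to 76.1 TPM. Whether the change from early to late differed between regions was tested as an interaction. Between midbrain and forebrain 6 of 9 genes were called, beside 4.8% of all genes. Between midbrain and hindbrain 7 of 9 were called, beside 3.02% of all genes. In both, the change in midbrain was more negative for Tal2 and Helt and more positive for Pou4f2, Tfap2b, Gata3 and Sox14. Against forebrain the Tal2 difference (-1.82, SE 0.34) was -0.80 from E11.5 to E16.5 alone and -1.04 with a pseudocount of 0.1 (limma adjusted p = 0.0991), and was called in neither. With E12.5 added to the early and E15.5 to the late window as labelled, the calls of Tfap2b, Gata3, Sox14 and Mab21l2 against hindbrain were lost. Mab21l2 was called against hindbrain, at -1.53 (SE 0.20), and not against forebrain, at 0.68 (SE 0.22). The value against hindbrain was -0.91, and not called, from E11.5 to E16.5 alone. The value against forebrain was called with a pseudocount of 0.1 (1.11) and with those added stages (1.19), and was 0.12 without the E10.5 forebrain library.

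The balance of paralogs was read as a ratio of TPM within each library of midbrain and hindbrain. In midbrain the ratio of Pou4f2 to Pou4f1 was 0.0115 and 0.0145 in the E10.5 libraries and 0.323 and 0.337 at E14.5. It was 0.822 and 1.02 at E16.5 and 1.14 in both libraries at P0. In hindbrain the ratio was 0.0536 and 0.0900 at E10.5, 0.251 and 0.272 at E14.5, and 0.462 and 0.493 at P0. Midbrain thus began below hindbrain and ended above it, with no overlap at either end. The ratio of Gata3 to Gata2 in midbrain was 0.432 and 0.505 at E10.5, 1.48 and 1.59 at E12.5, and 3.81 in both libraries at P0. In hindbrain it was 0.733 and 0.770 at E10.5 and 1.12 and 1.31 at P0. The ratio of Tal2 to Helt in midbrain lay between 3.82 and 15.4 in every library outside E15.5, while both genes fell to under 1 TPM.

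**Figure D4:**
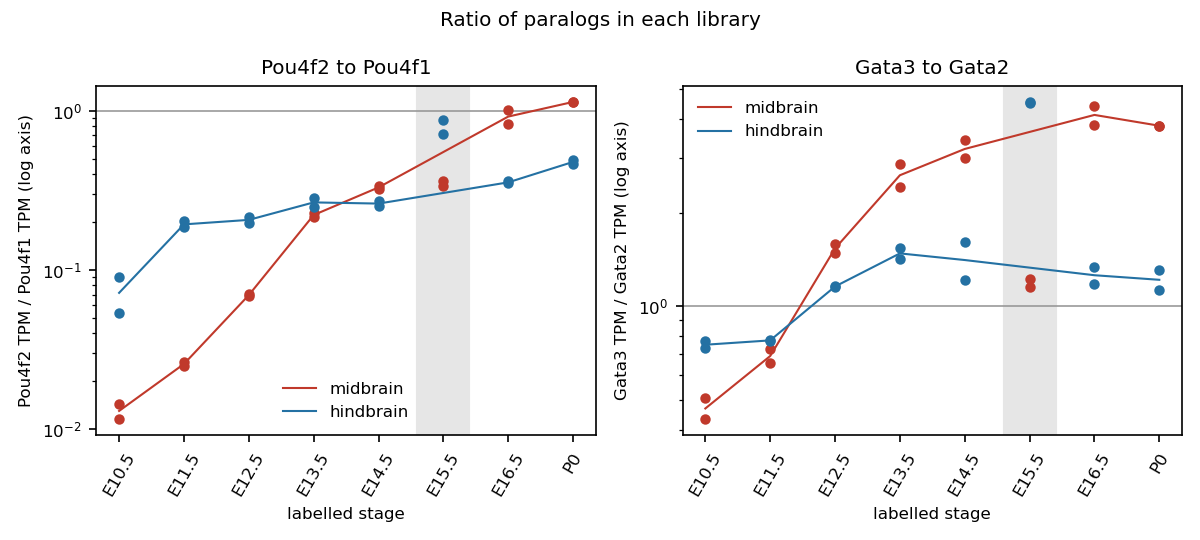
Ratio of Pou4f2 to Pou4f1 (left) and of Gata3 to Gata2 (right) in each library, on log axes, against labelled stage in midbrain and hindbrain; lines join means with E15.5 (grey band) left out. In midbrain the first ratio climbs from 0.0130 at E10.5 to 1.14 at P0 and the second from 0.468 to 3.81, both from below the hindbrain values to above them.

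At E15.5 the 9 genes differed between the 2 regions in the sense opposite to E14.5 for 8 of them. The libraries labelled midbrain held 1.30 and 1.17 TPM of Tal2 and those labelled hindbrain 15.2 and 16.3. Sox14 held 6.68 and 6.90 TPM under the midbrain label and 39.6 and 40.7 under the hindbrain label. Pou4f2 held 11.4 and 10 TPM against 35.2 and 33.6, and Tfap2b 55.5 and 47.7 against 175 and 193. Mab21l2 held 160 and 169 TPM under the midbrain label and 49.9 and 51.8 under the hindbrain label. Gata2 was the one gene with higher values under the midbrain label at both stages, at 9.01 and 9.21 TPM against 7.30 and 6.89 at E15.5. The sensory ganglion sum was 468 and 491 TPM under the midbrain label and 62.8 and 80.2 TPM under the hindbrain label. The labels were kept as deposited and no library was reassigned.

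Across the 21 pairs of brain region and stage outside E15.5, levels of the 9 genes on the log2 scale were compared as a description. These groups share regions and stages, so they are not independent. Tal2 and Helt had a Pearson correlation of 0.929, and each was the gene most like the other among all protein-coding genes tested. Gata3 was most like Tal1 (0.953), the blood and GABAergic partner factor, and Tfap2b was most like Gata3 (0.924). Sox14 was most like Asic4 (0.948), which encodes a proton-gated channel subunit, with Gata3 next but one (0.917). Gata2 was most like Irx5 (0.943) and Pax3 (0.939). Pou4f1 was most like Pmfbp1 (0.960), and Mab21l2 was most like Ebf3 (0.952) and Sncg (0.946), the latter one of the ganglion genes above. Pou4f2 was most like Zbtb46 (0.923), with its paralog Pou4f3 next but one (0.901). Helt and Pou4f2 had a correlation of -0.16, the lowest among the 9 genes.

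Other genes of the GABAergic program were read from a list of 11. This list, and those of the tectum and of relatives below, were chosen with earlier results of these data known. Their counts are therefore a description and no test of enrichment. In the middle window 7 of 11 were called higher in midbrain than in forebrain, beside 2.81% of all genes, and 4 were not called. The median of the 11 was 1.64, against 0.07 over all genes. Tal1 differed most, by 3.65 (SE 0.15), and Lhx1, a LIM homeodomain factor of inhibitory neurons, by 2.55 (SE 0.18). Genes of the transmitter itself were not called in that comparison: Gad1, which makes GABA, differed by 0.74, Gad2 by 0.06 and the vesicular transporter gene Slc32a1 by 0.78. Among the genes of the list called against hindbrain in the middle window were Nkx2-2 and Tal1, higher in midbrain, and Nkx6-1, lower. From early to middle in midbrain 7 of 11 rose, beside 13.1% of all genes. Gad1 of the list rose by 3.18 (SE 0.12) and Nkx6-1 fell by 1.49. Among those that fell from middle to late in midbrain were Lhx1, by 1.31, and Lhx5, by 1.21.

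Of 13 genes of the tectum and dorsal midbrain, 7 were higher in midbrain than in hindbrain in the middle window and 1, Meis2, was lower, with a median of 1.15. Over all genes, 0.659% were higher and 1.8% lower. The AP-2 gene Tfap2d differed by 3.86 (SE 0.33), Lhx9 by 2.58 (SE 0.20), Otx2 by 2.48 (SE 0.16) and Pax7 by 2.33 (SE 0.12). From early to middle in midbrain 6 of 13 rose, beside 13.1% of all genes. Slc17a6, the vesicular glutamate transporter gene, rose most of the 13, by 2.22 (SE 0.11), and Dmbx1 fell by 1.12. Of 16 relatives of the 9 genes in the same families, 5 were higher in midbrain than in hindbrain in the middle window: Tfap2d, Pou4f3 (1.45), Tal1 (1.30), Sox21 (1.23) and Tfap2e (1.03). Their median was 0. Gata4, Gata5 and Gata6 were called between midbrain and hindbrain in none of the 3 windows.

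Liver held little of these genes. No liver library held more than 0.75 TPM of Tal2, and Helt, Sox14 and Pou4f2 stayed at 0.17 TPM or less. Gata2 was an exception, with 5.46 and 5.56 TPM at E11.5 and 0.91 to 5.56 TPM over the liver libraries outside E15.5. Mab21l2 had a mean of 10.9 TPM in liver at E11.5 and a mean of 0.055 TPM at P0.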

How the data were processed

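Levels of 9 genes were read from 1 table of TPM values per Ensembl gene. The authors' values were made with STAR 2.4.0k and RSEM 1.2.23 on build mm10, per the submitters' processing notes, and the deposited TPM columns sum to between 997627 and 1000000. TPM keeps no read counts, so depth is unknown and no count test was possible. Libraries were grouped by the tissue and stage in their column header; 4 columns (1 each of midbrain and hindbrain headed E16.5 and P0) have a sample record that names the other of these stages, and were placed by header with their number set aside. Symbols came from GENCODE M21.

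The 18655 genes that reached 1 TPM in 2 or more libraries were tested as log2(TPM + 1), with limma 3.58.1 (R 4.3.3; 1 mean per tissue and stage, all 61 libraries, 30 residual degrees of freedom, variance trend, two-sided, Benjamini-Hochberg within each of 17 comparisons). A pseudocount of 1 understates changes of low genes. The fit was tested on simulated data. Named genes were the 9, the called list genes with the largest change, at most 4 a comparison, and, for each of the 9, the 3 protein-coding genes of highest correlation. The members and lists were chosen with earlier results of these data known. Alternatives covered the pseudocount, the filter, scaling, the windows, the 4 columns of conflicting stage, a replicate block, the tissues fitted, the Mir686 split (chosen after seeing the data) and leaving out each library. Drgx, of the ganglion list, was not matched by symbol. Promoter windows came from RefSeq on GRCm38.p6, and 3 windows that overlap an annotated exon are not printed. The result of 1 gene of the GABAergic list is not reported here, also where it was called.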

Additional observations from a re-analysis of the deposited data

Results flagged for a closer look

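The change from early to late differed between midbrain and forebrain for 6 of the 9 genes, by limma's test of the interaction, beside 4.8% of all genes. The log2 difference was -1.82 for Tal2, 4.22 for Pou4f2, 4.67 for Tfap2b, 2.63 for Gata3, -2.83 for Helt and 2.44 for Sox14. The Tal2 difference was -1.04 with a pseudocount of 0.1 (limma adjusted p = 0.0991) and was then not called. Negative values mean a change that was more negative in midbrain than in the other region.

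Between midbrain and hindbrain the same test called 7 of the 9 genes, beside 3.02% of all genes. The log2 difference was -3.32 for Tal2, 3.36 for Pou4f2, 2.47 for Tfap2b, 1.94 for Gata3, -3.25 for Helt, 1.94 for Sox14 and -1.53 for Mab21l2. Both tests share the midbrain libraries.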

How the results depend on the processing

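Of 1332 values of the 9 genes with 1 library left out, 1316 kept their direction and call, 6 lost a call and 10 gained one. Of 1647 values under the other alternatives, 1566 kept both, 35 lost a call, 45 gained one and 1 reversed: Tal2 between midbrain and hindbrain in the late window was -0.09 with the windows widened to E12.5 and E15.5 as labelled. The E15.5 libraries added there are those that go against their labels. They held 1.17 to 1.30 TPM of Tal2 under the midbrain label and 15.2 to 16.3 under the hindbrain label. The cause of the reversal was not tested.

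With a pseudocount of 0.1 more genes were called. Between midbrain and forebrain they were 1064 early, 1656 in the middle window and 1514 late (524, 924 and 811 with a pseudocount of 1). Between midbrain and hindbrain they were 970, 1044 and 816 (421, 459 and 378), and between forebrain and hindbrain 1709, 3004 and 1785 (855, 1721 and 1010). From middle to late they were 2777 in midbrain, 1650 in hindbrain and 3097 in forebrain (1555, 855 and 1768). From early to middle in forebrain they were 4616 (2923), and for the interactions 1660 against forebrain and 1217 against hindbrain (896 and 564). Of the 9 genes, 4 were called from middle to late in hindbrain and 4 in forebrain (2 and 1). Quantile normalization gave 4 and 2 there.

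Widened windows gave 39 genes and 0 of the 9 between midbrain and hindbrain late, 5 of the 9 from middle to late in midbrain, 535 genes and 1 of the 9 in hindbrain, and 3 of the 9 in the interaction against hindbrain. With the Mir686-positive stages alone (E11.5, E14.5, E16.5), 1319 genes were called between midbrain and forebrain late and 1571 between forebrain and hindbrain late. From middle to late 433 were called in midbrain, 346 in hindbrain and 371 in forebrain. Of the 9, 1 was called from early to middle and 3 from middle to late in forebrain. With the Mir686-zero libraries alone (E10.5, E13.5, P0), 4 of the 9 and 661 genes were called between midbrain and forebrain early, 3 of the 9 and 833 genes between forebrain and hindbrain early, 4 of the 9 and 3692 genes from early to middle in forebrain, and 5 of the 9 and 1808 genes from middle to late in hindbrain, all of 18655 tested. From middle to late in midbrain 3151 genes were called. In hindbrain P0 was then 1 library. These 2 settings use fewer samples. The second could not be run for comparisons with late forebrain, where no library lists Mir686 at 0. With 1 library left out, 1 to 2 of the 9 were called from early to middle in forebrain (1 without the E10.5 replicate 2) and 1 to 2 from middle to late (2 without the P0 replicate 1).

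Replicate numbers did not pair the libraries: deviations of brain libraries with the same number and stage had correlations of -0.02 to 0.16. A replicate block moved no count of calls by over 1.5 times (557 genes and 6 of the 9 between midbrain and forebrain early, against 524 and 7). With that block the calls of Gata3 (0.97, midbrain against forebrain, early) and Tfap2b (-0.86, forebrain against hindbrain, early) were lost, and Gata2 was called from middle to late in midbrain (-1.06).

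Quantile normalization moved the share of higher calls by over 10 percentage points in 8 of 17 comparisons, most between forebrain and hindbrain in the middle window (30.9% to 45.7%), and median-of-ratios scaling in 0. Scaling moved the median of all genes by at most 0.11, in forebrain against hindbrain early. With TPM the depth is unknown, so no interval for counting error can be given. Groups hold 2 libraries, and forebrain at E10.5 holds 1, which is assumed to vary like the other groups.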
